A study of Rattus norvegicus with 63 samples.

Results

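Kidney RNA of rats killed 12 h after an injection of methylprednisolone was compared with that of rats killed 8 h after it, 3 arrays against 3, over all probe sets of the main array type. A probe set is a group of short probes that together read 1 transcript. The 6 arrays are part of 53 arrays of this type and of 63 in the whole series, and 9520 of the 15923 probe sets were bright enough to be tested. Other arrays come from 0 h, without an injection (4 arrays), and from 14 further times between 0.25 and 72 h. Methylprednisolone is a synthetic glucocorticoid, and every sample but those at 0 h received it. The labels give no dose, strain, sex, age or hour of day for these rats, and they do not say how many rats a sample holds. All untreated rats are from 0 h, so time since the injection and hour of day cannot be told apart.

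Glucocorticoids bind the glucocorticoid receptor, a transcription factor that waits in the cytoplasm with chaperones and moves to the nucleus once it holds the hormone. There it raises the transcription of some genes and lowers that of others, and it leaves the DNA again when the hormone is cleared. How fast a transcript then follows depends on the lifetime of the mRNA and of the proteins made in the first wave. In the kidney, glucocorticoids are known for effects on sodium and potassium handling, on ammonia and glucose production from amino acids and on inflammation. The receptor's own transcript, Nr3c1, had intensities of 137, 162 and 173 at 8 h and of 158, 199 and 152 at 12 h, and these groups overlapped.

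Values are array intensities as the authors scaled them, or log2 differences of intensity plus 7.55 with their standard error (SE) from limma, a linear model fitted over all 52 libraries of the 17 times. A mean level at a time was taken on the log2 scale and turned back to intensity. A probe set was called where limma's p-value, adjusted with the Benjamini-Hochberg method over all 9520, lay under 0.05. The labels do not say that numbered samples are separate animals, so p-values measure only how far these samples spread, and that spread may be technical. In 8 h replicate 1, 41 probe sets stood more than 2-fold above every other library of the 6, against 0 to 3 in each other library, and acute-phase genes led them. Replicate 2 at 12 h is the only array of the 6 that carries the letter b in its title, and the labels do not say what the letter means. Kidney markers were bright in all 6 libraries, with Umod of the thick limb between 2280 and 3340 and Lrp2 of the proximal tubule between 1700 and 2540.

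Between 8 h and 12 h, 29 probe sets fell (0.305% of those tested) and 20 rose (0.21%), 0.515% in all, while 752 differed at an unadjusted p under 0.05. The falls were the larger changes, from 0.85 to 3.03 on the log2 scale with a median size of 1.32, against 0.66 to 2.46 with a median size of 0.9 for the rises. All 29 falls and all 20 rises had no overlap between the 3 libraries of each time. They were called on these same libraries, so the lack of overlap is no separate support. The share of all tested probe sets without overlap is not given here. The falls belong to 21 named genes and 6 probe sets with no single symbol, and the rises to 15 named genes and 5 such probe sets. The counts rest in part on single libraries: without 8 h replicate 1 there were 19 falls and 10 rises, without 12 h replicate 2 there were 20 and 5, and without 8 h replicate 3 there were 11 rises. Of the 49 calls, 13 held in every alternative processing that tested them, 11 of them falls.

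**Figure D1:**
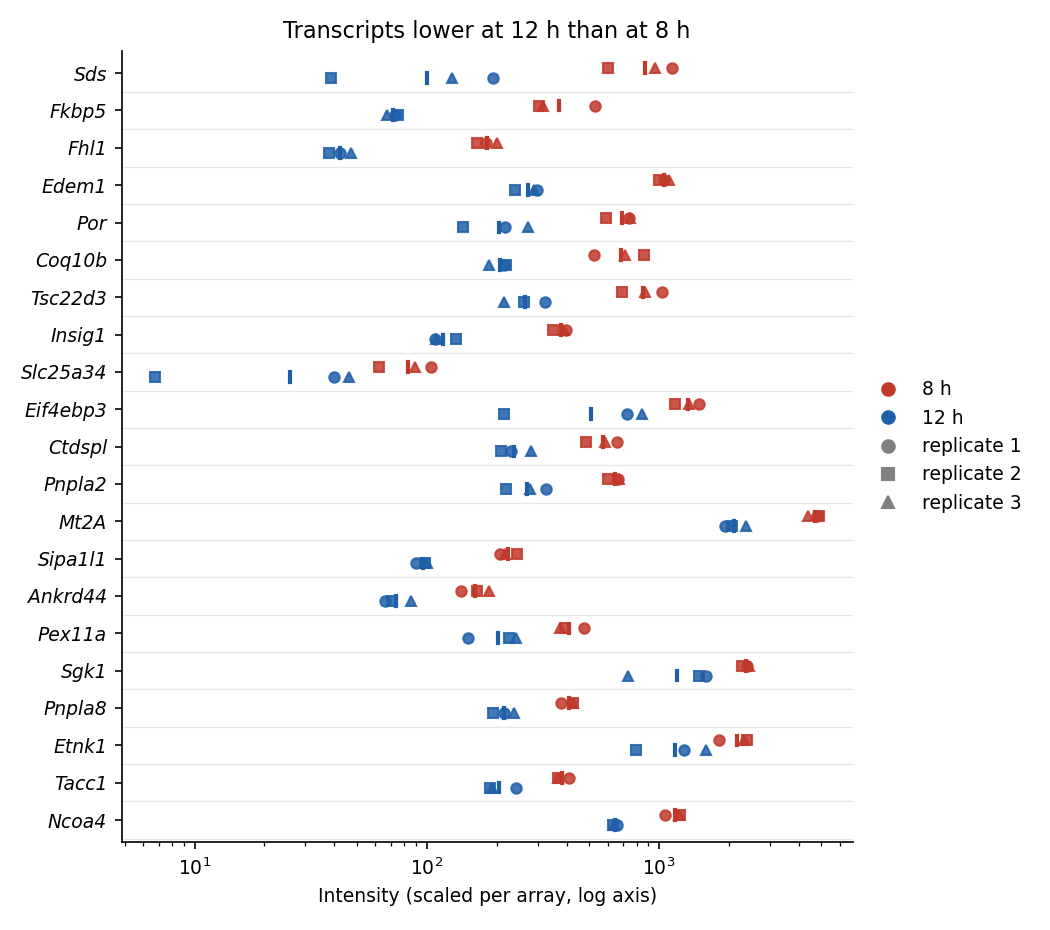
Intensity on a log axis of the 21 named genes that fell between 8 h (red) and 12 h (blue), 1 point a library with its replicate number as the symbol and a bar at the mean taken on the log2 scale. The groups do not overlap for any of these genes, and Sds has 602 as its lowest 8 h value and 192 as its highest 12 h value.

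Sds and Fkbp5, known to be induced by glucocorticoids, had the largest falls. Fhl1, Edem1, Por and Coq10b, given below, came before Tsc22d3. Sds, serine dehydratase, which turns serine into pyruvate for gluconeogenesis, had intensities of 1140, 602 and 957 at 8 h and of 192, 38.6 and 128 at 12 h. All 3 libraries at 12 h lay far below the lowest at 8 h, an 8.15-fold lower mean (log2 difference -3.03 ± 0.48 SE, limma adjusted p = 0.00018). The call was lost with the 8 h and 12 h libraries alone (limma adjusted p = 0.0588). Over the 16 alternatives the smallest size of the difference was 2.42. The mean level of Sds, 34.7 without the drug, was 1100 by 4 h, still 812 by 7 h and only 49.7 by 18 h. Fkbp5, a cochaperone that restrains the receptor's hormone binding and is itself induced by it, went from 528, 303 and 317 to 73.2, 75.4 and 67.2. The 12 h values were tight and the 8 h values were not, since 8 h replicate 1 was the highest. Fkbp5 fell by 2.25 ± 0.24 (adjusted p = 5.03e-08), and by 2.00 without 8 h replicate 1 (adjusted p = 5.17e-06). Tsc22d3, the anti-inflammatory leucine zipper protein GILZ, went from 1030, 690 and 873 to 322, 263 and 215, with no overlap. It fell by 1.67 ± 0.21 (adjusted p = 2.14e-06).

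Sgk1, a kinase that raises sodium uptake through the epithelial sodium channel, fell less and stayed above its untreated level. Its intensities were 2390, 2280 and 2430 at 8 h and 1590, 1490 and 732 at 12 h, where replicate 3 was the lowest. The difference was -0.97 ± 0.24 (adjusted p = 0.0394). That call was lost in 7 of 16 alternatives, among them each one that left out an 8 h library or 12 h replicate 3 (-0.62 without the latter, adjusted p = 0.437). Against 0 h, where its mean level was 493, Sgk1 was still higher at 12 h by 1.27 (adjusted p = 0.00268). Replicate 3 at 12 h, with 732, lay just above the highest 0 h value of 720. The mean level of Sgk1 was 893 at 18 h and 456 over 30 to 72 h.

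Edem1, Por, Insig1 and Pnpla2 fell as well. Edem1, which directs misfolded glycoproteins to degradation, had the smallest p of all: 1050, 1000 and 1100 at 8 h against 298, 240 and 289 at 12 h. Both groups were tight, and the mean of 274 at 12 h stood beside 277 at 0 h and 1410 at 4 h. Edem1 fell by 1.91 ± 0.17 (adjusted p = 3.02e-10). Por, the reductase that passes electrons to microsomal cytochromes P450, went from 1040, 1050 and 1240 to 350, 233 and 472, a fall by 1.69 ± 0.25 (adjusted p = 6.34e-05). The second probe set of Por fell by 1.72 ± 0.39 (adjusted p = 0.0187), and its call was lost without 8 h replicate 1 (adjusted p = 0.0998). Insig1, which holds the sterol sensor complex in the endoplasmic reticulum, went from 399, 350 and 389 to 108, 134 and 110. It fell by 1.64 ± 0.40 (adjusted p = 0.0361), and the call was lost in 8 of 16 alternatives. Pnpla2, the triglyceride lipase ATGL, went from 664, 602 and 674 to 327, 219 and 279, a fall by 1.23 ± 0.16 (adjusted p = 6.73e-06).

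The remaining genes among the 15 largest falls have other roles. Fhl1, a LIM domain protein of muscle and other tissues, fell on both probe sets, 1 of them going from 799, 657 and 865 to 272, 216 and 335 (log2 difference -1.48 ± 0.22, adjusted p = 6.34e-05). The other fell by 1.92 ± 0.43 (adjusted p = 0.0177), and its call was lost in 6 of 15 alternatives. Coq10b, a coenzyme Q binding protein of mitochondria, went from 524, 860 and 715 to 215, 220 and 186, a fall by 1.70 ± 0.29 (adjusted p = 0.000496). Slc25a34, of the mitochondrial carrier family, was dim, with 104, 62 and 89.3 at 8 h and 40, 6.75 and 46.2 at 12 h, and replicate 2 at 12 h lay below the added constant of 7.55. Its call (log2 difference -1.45 ± 0.36, adjusted p = 0.0425) was lost in 8 of 15 alternatives, with -0.85 without 12 h replicate 2 (adjusted p = 0.687). Eif4ebp3, a repressor of cap-dependent translation, fell by 1.37 ± 0.31 (adjusted p = 0.018), from 1490, 1170 and 1350 to 731, 214 and 843. Its difference was -0.76 without 12 h replicate 2, the lowest (adjusted p = 0.545), and the call was lost in 5 of 16 alternatives. With all libraries it was, like Sgk1, still above 0 h at 12 h, by 1.49 (adjusted p = 0.0091).

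Ctdspl, a small phosphatase, fell by 1.24 ± 0.22 (adjusted p = 0.00056). Sipa1l1, which acts on Rap GTPases, fell by 1.15 ± 0.26 (adjusted p = 0.0204), and each of the 6 fits that left out a single 8 h or 12 h library lost that call. Ankrd44, an ankyrin repeat protein, fell by 1.06 ± 0.20 (adjusted p = 0.00138). Mt2A, a metallothionein that binds zinc and copper, had intensities of 4810, 4900 and 4400 at 8 h and of 1920, 2060 and 2370 at 12 h. It fell by 1.15 ± 0.20 (adjusted p = 0.000565). Its mean level of 2110 at 12 h lay under that of 3000 at 0 h, a difference of -0.51 that did not pass (adjusted p = 0.703), and it was 2150 at 18 h. Metallothionein genes are alike in sequence, and whether the probes separate them was not tested. A probe set with several symbols, Mt1f, Ttr and Mt1 (1371237_a_at), went from 4600, 3600 and 4170 to 807, 1860 and 2280. It was below 0 h at 12 h by 1.21 (adjusted p = 0.0456). Its call between 8 h and 12 h was lost in 3 of 16 alternatives (highest adjusted p = 0.239), among them that without 12 h replicate 1, the lowest. Without that library no probe set was called lower at 12 h than at 0 h.

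A further 5 named genes fell by less than 1 and are given here although they lie outside the rule of the 15 largest falls. They were Pex11a of peroxisome division (-0.99), the phospholipase gene Pnpla8 (-0.91), the ethanolamine kinase gene Etnk1 (-0.88), the centrosomal Tacc1 (-0.87) and Ncoa4, the receptor that takes ferritin to lysosomes (-0.85). The other probe set of Pex11a had a difference of -0.84 that did not pass (adjusted p = 0.281). The call of Tacc1 was lost in 7 of 16 alternatives, among them each one without an 8 h library, and that of Etnk1 in 5 of 16 (highest adjusted p = 0.574). Ncoa4 was called in every alternative, with 1060, 1230 and 1220 at 8 h and 659, 634 and 640 at 12 h.

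Promoter windows were read from RefSeq on the rat assembly GRCr8, from 250 bases before to 50 after each gene's start. Of the 36 named genes 33 had an entry, 19 that fell and 14 that rose. Searched on both strands were the receptor's full palindromic element, its shorter site AGAACA, the clock elements CACGTG, TTATGNAA and AGGTCA, the cyclic AMP element TGACGTCA and the heat shock element GAANNTTC. The palindromic element holds that shorter site. The windows of 3 falling genes are shown: Fkbp5 as the largest fall with an entry, and Coq10b and Fhl1 as those with a match of 8 letters, which stands in capitals. Fkbp5 lies at chr20:6543506-6543805 on the minus strand, Coq10b at chr9:64047918-64048217 and Fhl1 at chrX:139638246-139638545, both on the plus strand, and each is written 5′ to 3′ along the gene.
Fkbp5: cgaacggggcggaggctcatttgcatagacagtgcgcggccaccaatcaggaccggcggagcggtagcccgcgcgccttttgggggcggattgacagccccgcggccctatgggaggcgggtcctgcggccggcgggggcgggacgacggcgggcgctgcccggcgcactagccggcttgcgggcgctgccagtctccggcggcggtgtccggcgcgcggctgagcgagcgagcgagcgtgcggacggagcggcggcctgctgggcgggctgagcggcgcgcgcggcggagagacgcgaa
Coq10b: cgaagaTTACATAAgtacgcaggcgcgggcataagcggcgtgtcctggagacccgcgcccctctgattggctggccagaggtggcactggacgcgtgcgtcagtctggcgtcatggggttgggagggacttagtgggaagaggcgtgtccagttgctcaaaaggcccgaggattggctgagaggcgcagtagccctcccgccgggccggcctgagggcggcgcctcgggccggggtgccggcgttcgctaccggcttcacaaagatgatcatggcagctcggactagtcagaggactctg
Fhl1: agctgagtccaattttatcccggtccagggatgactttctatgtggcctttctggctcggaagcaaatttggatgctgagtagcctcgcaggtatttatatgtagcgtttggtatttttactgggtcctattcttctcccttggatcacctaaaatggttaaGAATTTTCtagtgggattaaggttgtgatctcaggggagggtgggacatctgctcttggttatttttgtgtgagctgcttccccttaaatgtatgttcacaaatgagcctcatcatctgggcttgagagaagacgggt

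The Fkbp5 window held none of the 7 motifs. Coq10b held TTATGNAA on the opposite strand, as 1 of 19 falling genes, against 3.54% of all 27457 promoters, and Fhl1 held GAANNTTC, again 1 of 19 (8.34% of all). The full palindromic element was in none of the 33 windows (0.00728% of all), and AGAACA was in none of the 19 falling genes and in Lhfpl2, Rpp25 and Cdhr2 of the 14 that rose (20.1% of all). AGGTCA was in 4 of the 19 falling genes, Slc25a34, Por, Ncoa4 and Eif4ebp3, and in none that rose (15.7% of all). CACGTG was in Insig1 and Mt2A among those that fell and in Clcn6 and C14h4orf19 among those that rose (6.65% of all), and TGACGTCA in none (1.91% of all). A window without a match says only that these letters are not in those 300 bases.

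Tmem86a, Cldn10, Cgnl1 and Pllp were among the genes that rose, and the rises were smaller than the falls. Tmem86a, an enzyme that breaks down lysoplasmalogens, led the named genes with 43, 62.9 and 62.7 at 8 h and 119, 414 and 145 at 12 h. Replicate 2 was the highest at 12 h. Tmem86a rose by 1.67 ± 0.34 (adjusted p = 0.0052), and the call was lost without 12 h replicate 2, without 8 h replicate 1, when all arrays lettered b or c were left out and with the 8 h and 12 h libraries alone (highest adjusted p = 0.348). Its mean level, 223 in untreated rats, was 69 by 4 h and 255 by 18 h. Cldn10, a claudin that forms ion-selective tight junctions in the tubule, went from 285, 337 and 251 to 447, 877 and 645, without overlap. It rose by 1.11 ± 0.19 (adjusted p = 0.000496), and its mean level had been 858 in untreated rats, 432 by 4 h and 263 by 7 h. Cgnl1, which encodes paracingulin of the same junctions, went from 623, 775 and 693 to 1040, 1110 and 1150, a rise by 0.66 ± 0.15 (adjusted p = 0.0271), and its call was lost in 6 of 16 alternatives, among them the fit without 8 h replicate 1. Pllp, the membrane protein plasmolipin, rose by 0.93 ± 0.17 (adjusted p = 0.00138), from 231, 250 and 222 to 383, 556 and 431.

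**Figure D2:**
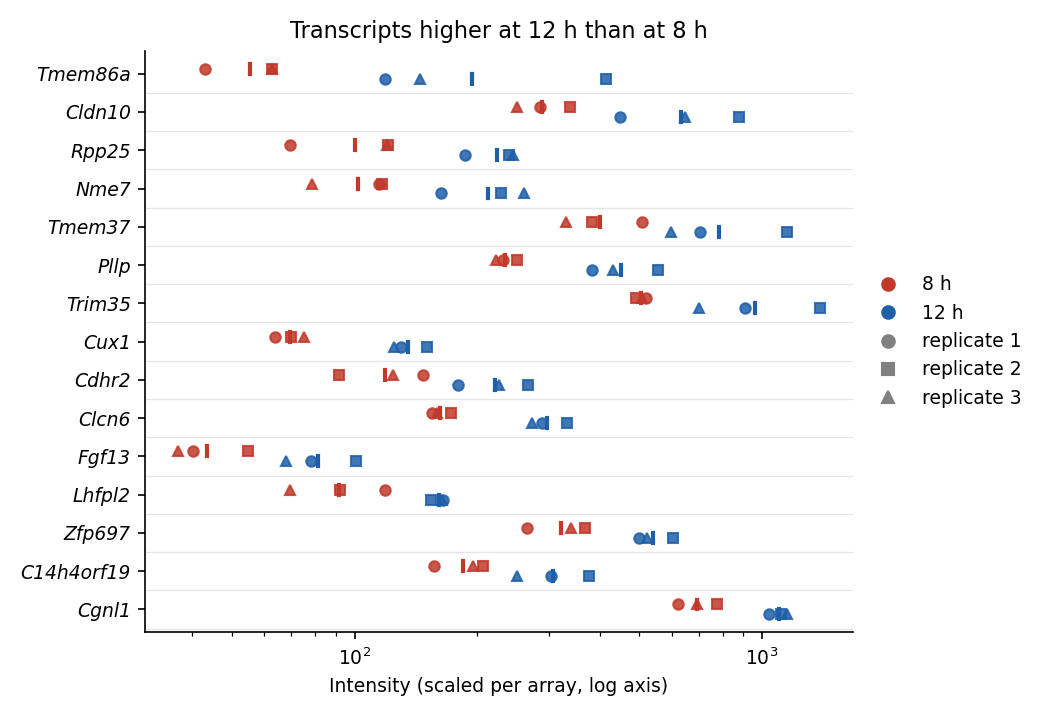
Intensity on a log axis of the 15 named genes that rose between 8 h (red) and 12 h (blue), 1 point a library with its replicate number as the symbol and a bar at the mean taken on the log2 scale. No gene's groups overlap, and 12 h replicate 2 (blue squares) is often the highest of its group, as in Tmem86a at 414.

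The other named rises were spread over many roles. Rpp25, a subunit of ribonuclease P, rose by 1.09 and Nme7, a nucleoside diphosphate kinase, by 1.01. Trim35, a ubiquitin ligase, rose by 0.91 and Cdhr2, a protocadherin of the brush border, by 0.85. Clcn6, a chloride transporter of late endosomes, rose by 0.84, and Fgf13, a growth factor relative that binds sodium channels, by 0.80. Lhfpl2, Zfp697, a zinc finger gene, and C14h4orf19 rose by 0.76, 0.74 and 0.70. Cux1, a homeodomain transcription factor, rose by 0.89 on the probe set that was called, whereas its other probe set had a difference of 0.16 (adjusted p = 0.851). Tmem37 is a relative of calcium channel gamma subunits. Its mean level, 549 in untreated rats, was 698 by 7 h, 400 in the 8 h libraries, and then 784 and 919 in those of 12 h and 18 h. Cdhr2 was lowest at 8 h as well, with 172 in untreated rats, 165 by 7 h, 119 by 8 h, 221 by 12 h and 150 by 18 h. Each of the 15 named rises lost its call in 2 to 9 alternatives, Nme7, Cux1 and Lhfpl2 in 8 of 16 and Fgf13 in 9 of 15. In 15 of the 20 rises the highest of the 3 values at 12 h was that of replicate 2, and in 16 of the 29 falls that library was the lowest. The same shares over all tested probe sets are not given here. These counts therefore cannot be read as a trait of the called probe sets.

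The largest rise of all has no gene symbol in the annotation used, and it was picked out after its values were seen. Probe set 1372911_at went from 73.7, 95 and 91.6 at 8 h to 515, 740 and 342 at 12 h. It rose by 2.46 ± 0.32 (adjusted p = 4.24e-06), and it was called in every alternative, with 2.19 as the smallest difference. Its mean level, 204 in untreated rats, was 57.3 by 4 h, then 507 and 716 by 12 h and 18 h. The 12 h level stood above 0 h by 1.29, which did not pass (adjusted p = 0.0593).

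Tmem86a and Zfp697 are the promoters shown among the rises, Tmem86a as the largest named rise and Zfp697 for its match to GAANNTTC (capitals), which 1 of the 14 rising genes held. Tmem86a lies at chr1:106731918-106732217 and Zfp697 at chr2:188659044-188659343, both on the plus strand, again from RefSeq on GRCr8.
Tmem86a: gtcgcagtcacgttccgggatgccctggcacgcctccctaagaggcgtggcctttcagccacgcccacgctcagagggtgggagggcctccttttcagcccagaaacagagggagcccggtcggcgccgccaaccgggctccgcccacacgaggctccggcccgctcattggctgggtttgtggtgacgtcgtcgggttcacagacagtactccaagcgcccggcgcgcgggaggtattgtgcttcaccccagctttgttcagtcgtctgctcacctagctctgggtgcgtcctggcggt
Zfp697: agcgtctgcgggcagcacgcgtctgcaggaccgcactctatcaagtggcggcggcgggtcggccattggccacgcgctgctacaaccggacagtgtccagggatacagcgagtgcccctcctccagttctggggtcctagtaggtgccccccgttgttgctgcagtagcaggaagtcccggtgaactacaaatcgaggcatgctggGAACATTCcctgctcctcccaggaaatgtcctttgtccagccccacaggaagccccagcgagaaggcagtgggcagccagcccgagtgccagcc

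Transcripts that moved between 8 h and 12 h mostly differed between 4 to 7 h and 30 to 72 h as well. To place them, the mean of 4, 5, 5.5, 6 and 7 h (15 libraries) was compared with that of 30, 48 and 72 h (9 libraries), a comparison that holds no 8 h or 12 h library. It called 1283 probe sets higher at 4 to 7 h (13.5% of those tested), termed raised here, and 1608 lower (16.9%), termed lowered. All 29 falls were among the raised. Of the 20 rises 18 were among the lowered, Tmem37 was among the raised and 1398935_at, which has no symbol, was in neither. Without 7 h replicate 3, in which acute-phase genes were high, all 29 falls were again among the raised and 17 of the 20 rises among the lowered. Both comparisons come from the same fit and share its estimate of spread. The part of the hour of day in the raised and lowered sets was not tested.

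**Figure D3:**
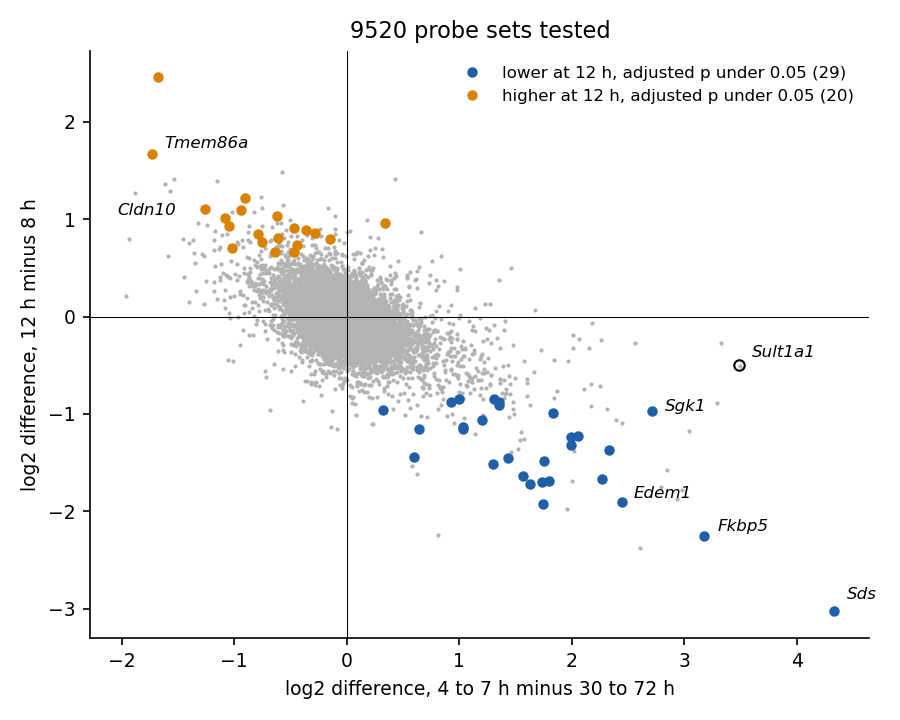
Each point is 1 of 9520 probe sets: across, the log2 difference of 4 to 7 h minus 30 to 72 h, and upward, that of 12 h minus 8 h, with the 29 falls in blue, the 20 rises in orange and Sult1a1 circled. The falls lie at the lower right, led by Sds at -3.03, and Sult1a1 lies far right at -0.50 without a call.

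The 1283 raised probe sets as a whole stood lower at 12 h than at 8 h. Their median difference of 12 h minus 8 h was -0.22 (quartiles -0.39 and -0.09), and 87.0% lay below 0, against a median of -0.01 and 52.0% over all tested. Above the level of 30 to 72 h their median stood at 0.47 by 4 h, 0.4 by 7 h and 0.33 by 8 h, and then at 0.11 by 12 h and 0.1 by 18 h. The 4 h, 7 h and late libraries served to pick these probe sets, but those of 8 h, 12 h and 18 h did not. The step from 7 h to 8 h may therefore come in part from that choice, here and in the sets below. For the 165 raised by at least 1 on the log2 scale the median was -0.66 and 95.8% lay below 0. Their median above the late level went from 1.61 (4 h) through 1.1 (7 h) and 0.93 (8 h) to 0.25 (12 h) and 0.14 (18 h). Of these 165, 24 were called as falls (14.5%). The 1608 lowered probe sets moved the other way by less, with a median of 0.16 and 77.1% above 0. The 59 lowered by at least 1 had a median of 0.63, and their median below the late level went from -1.25 (7 h) and -0.73 (8 h) to -0.16 (12 h) and -0.17 (18 h). Over 16 alternatives the median of all raised probe sets stayed between -0.24 and -0.19 and that of all lowered between 0.13 and 0.18.

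The steps on either side held no call. Between 7 h and 8 h limma called 0 probe sets (0.0%), where 319 had an unadjusted p under 0.05. Weighting the arrays gave 3 higher and 2 lower there, and fits with a single 8 h or 12 h library left out gave up to 2 lower. Without 7 h replicate 3 limma called 0, with 263 at an unadjusted p under 0.05. Between 12 h and 18 h it called 0 (0.0%), with 269 at an unadjusted p under 0.05 and 0 in all 16 alternatives. These comparisons share the 8 h or the 12 h libraries with the main one, and no test compared the steps with each other.

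**Figure D4:**
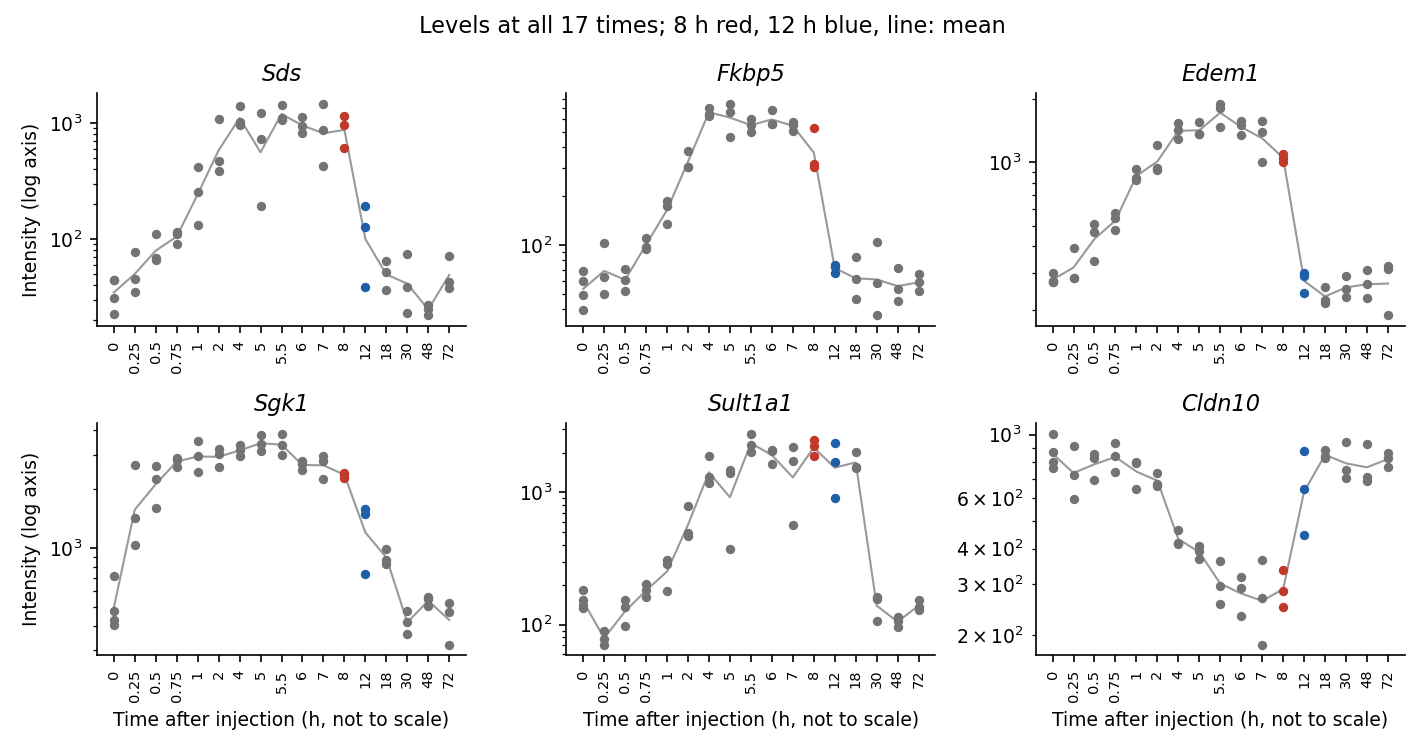
Intensity on a log axis at all 17 times (hours after injection, not spaced to scale) for Sds, Fkbp5, Edem1, Sgk1, Sult1a1 and Cldn10, with 8 h in red, 12 h in blue, other libraries in grey and a line through the means taken on the log2 scale. Fkbp5 drops from a mean of 371 at 8 h to 71.9 at 12 h, Sgk1 from 2370 to 1200, Sult1a1 is at 1540 at 12 h and 1690 at 18 h, and Cldn10 goes from 289 to 633.

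Some transcripts were still above their 0 h level at 12 h. Against 0 h, 9 probe sets were higher at 12 h (0.0945%) and 7 lower (0.0735%). Those counts rest on few libraries: without 12 h replicate 1 they were 1 and 0, and without 12 h replicate 3 they were 3 and 4. Sult1a1, a sulfotransferase of drugs and hormones, had 1870, 2490 and 2250 at 8 h and 1710, 904 and 2370 at 12 h, with overlap and replicate 2 the lowest. Its difference between 8 h and 12 h was -0.50 ± 0.36 (adjusted p = 0.807), and at 12 h it was above 0 h, where its mean level was 150, by 3.30 (adjusted p = 3.49e-08). Its mean level was 1690 at 18 h and 127 over 30 to 72 h. Gnmt, which methylates glycine, had 277, 552 and 732 at 8 h and 492, 274 and 1090 at 12 h, a difference of 0.13 ± 0.43, and was above 0 h at 12 h by 2.09 (adjusted p = 0.0091).

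Gstm1, Gstm2, Prodh, Arg2 and Cyp4a8 were also above 0 h. Gstm1 and Gstm2, glutathione transferases whose sequences are alike, were above 0 h at 12 h by 2.72 (adjusted p = 0.0228) and 1.73 (adjusted p = 0.0121). Between 8 h and 12 h they differed by -0.23 ± 0.62 and -0.46 ± 0.38, neither of which passed. Prodh, proline dehydrogenase, was above 0 h by 2.21 (adjusted p = 0.0091), with 384, 259 and 664 at 8 h and 310, 241 and 441 at 12 h, which overlapped. Arg2, the mitochondrial arginase, was above by 0.96 and Cyp4a8, a fatty acid hydroxylase, by 0.86, and Sgk1 and Eif4ebp3 complete the 9. Among the 7 that were lower at 12 h than at 0 h were both probe sets of Nr1d2 (-1.60 and -1.46) and Nr1d1 (-1.33), repressors of the circadian clock. Tnnc1 (-1.02), Fhit (-0.69), RT1-Da (-0.66) and 1371237_a_at were the others. The 12 h libraries enter this comparison and that with 8 h alike. Whether the fall of Fkbp5 or Sds differed from that of Sult1a1 was not tested.

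Among the lists of related genes, that of genes known to be induced by glucocorticoids held the most calls. The lists were chosen with earlier results of these data known, so these counts are no independent support. Of 40 genes 31 were tested, and Sds, Fkbp5, Tsc22d3, Por, Mt2A and Sgk1 fell while none rose, against 0.305% lower over all tested. The median difference was -0.81 with 30 of 31 below 0, against -0.01 over all tested. It was -0.48 without 8 h replicate 1, and 10 fell when arrays were weighted. The summed intensity of the 31 was 32400, 20100 and 21000 at 8 h and 13400, 11300 and 11900 at 12 h, so the groups did not overlap and 8 h replicate 1 was the highest. Several members had wide differences that did not pass: Per1, a clock gene, -1.75 ± 0.45 (adjusted p = 0.0591), Spsb1 -1.79 ± 0.56 (adjusted p = 0.206), the phosphatase gene Dusp1 -1.06 ± 0.36 (adjusted p = 0.272) and the growth factor binding protein gene Igfbp1 -1.87 ± 0.87 (adjusted p = 0.584). Without 8 h replicate 1 these were -1.39, -1.04, -0.71 and -1.14. Nfkbia, the inhibitor of NF-kappaB, had 525, 126 and 74.3 at 8 h and 240, 74.9 and 60.2 at 12 h, which overlapped (difference -0.69 ± 0.53, adjusted p = 0.834). Klf9, a transcription factor, had a difference of -0.10 ± 0.24 (adjusted p = 0.972), with 650, 576 and 828 against 472, 727 and 734.

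Of 38 lists, 33 held no called gene, where 0.515% of all tested probe sets were called and 0.305% fell. The other lists with a call were drug metabolism (1 of 24, Por), amino acid catabolism (1 of 33, Sds), cholesterol and fatty acid synthesis (1 of 21, Insig1) and sodium and potassium handling (2 of 21, Sgk1 and Tsc22d3), all falls, with medians of -0.07, 0.09, -0.04 and 0.04. The clock and clock output list had 14 genes tested, 9 below 0 and 5 above, with a median of -0.41 and 0 calls by limma. Of the 14, 7 were lower and 0 higher at an unadjusted p under 0.05, against 402 and 350 of all 9520 tested. Weighting the arrays gave 3 calls, all lower. Usp2 had 338, 195 and 269 at 8 h and 104, 109 and 101 at 12 h (difference -1.26 ± 0.45, adjusted p = 0.331). Per2 had 251, 344 and 360 against 199, 160 and 200 (-0.74 ± 0.26, adjusted p = 0.325), and Nr1d2 94.8, 186 and 139 against 50.4, 72 and 75.9 (-0.97 ± 0.27, adjusted p = 0.105). On these probe sets none of the 3 genes, all from the side below 0, had overlapping groups. The share without overlap over all tested probe sets is not given here, so this cannot be read as a trait of the list. The groups of the other Nr1d2 probe set overlapped, with 70.8, 167 and 123 at 8 h and 48.1, 101 and 65.7 at 12 h. The clock genes Bmal1 and Dbp lay above 0, by 0.4 ± 0.23 (adjusted p = 0.716) and 0.21 ± 0.54 (adjusted p = 0.977), with overlapping groups. The part of the hour of day in these differences was not tested.

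Some lists without a call lay mostly on one side of 0, where 48.0% of all tested probe sets lay above it. At an unadjusted p under 0.05, 350 of all 9520 tested were higher and 402 lower. Of 51 genes of oxidative phosphorylation 45 lay above 0 with a median of 0.18 (0.11 without 8 h replicate 1), and 6 were higher at an unadjusted p under 0.05. Of 16 organic anion, cation and peptide transporters 12 lay above 0 with a median of 0.24 and 4 were higher at an unadjusted p under 0.05. Slc22a6, the anion transporter OAT, had 897, 1110 and 1020 at 8 h and 1550, 1660 and 1790 at 12 h, a difference of 0.72 ± 0.20 that did not pass (adjusted p = 0.0907). The lists of gluconeogenesis and ammoniagenesis and of the renin-angiotensin system did not lean upward, with 5 of 12 and 3 of 7 above 0 and medians of -0.02 and -0.01. Of 25 chaperones 19 lay below 0, with a median of -0.23 and 0 at an unadjusted p under 0.05.

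Markers of cell types were read to see whether the make-up of the samples moved. In whole tissue, fewer cells of a type and less RNA per cell cannot be told apart. All 12 tested markers of thick limb, distal tubule and collecting duct lay above 0, with a median of 0.40 (0.24 without 12 h replicate 2) and 0 called by limma (1 at an unadjusted p under 0.05). Their summed intensity was 7650, 7100 and 6690 at 8 h and 10800, 10900 and 7800 at 12 h, so the groups did not overlap. Calb1, calbindin of the distal tubule, had 966, 828 and 798 against 2160, 2100 and 864, with overlap and replicate 3 low at 12 h. The rises of Cldn10 and Cgnl1 came beside this shift, whose part in them was not tested. Of 19 proximal tubule markers 11 lay above 0, with a median of 0.03 and 1 at an unadjusted p under 0.05, and their sums overlapped (37400 to 49000 against 39900 to 49400). All 7 smooth muscle markers lay above 0 with a median of 0.15, and their sums did not overlap (1040 to 1150 against 1200 to 1260). Of 6 podocyte markers 4 lay above 0 with a median of 0.10, and their sums, 1590 to 1870 at 8 h and 1880 to 2060 at 12 h, did not overlap either. Of 10 endothelial markers 6 lay below 0 with a median of -0.21 (-0.03 without 12 h replicate 2). None of these markers was called.

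Blood and immune markers and those of other tissues were read as well. The sums of 4 red blood cell markers were 1350, 1110 and 961 at 8 h and 1660, 1340 and 1500 at 12 h, which overlapped. Hbb, a hemoglobin chain, had 972, 816 and 627 against 1290, 1010 and 1190, with no overlap and a difference of 0.54 ± 0.54 that did not pass (adjusted p = 0.88). Macrophage and neutrophil markers summed to 4040, 2420 and 2370 at 8 h and to 4150, 2440 and 2220 at 12 h, so replicate 1 was the highest at both times. The chemokine gene Cxcl1 had 466, 14.5 and 2.12 at 8 h and 373, 21.4 and 4.37 at 12 h, and Ccl2 268, 11.2 and 6.42 against 518, 43.8 and 51.3. The adrenal gland genes Cyp11b1 and Star, the T cell gene Cd3e and the liver gene Alb had mean levels of 52.5 or less on every probe set at both times. They were too dim to be tested. Other members of their lists were bright enough, and none of those was called. The sums of 5 liver markers were 559 to 643 at 8 h and 543 to 760 at 12 h. Those of 3 lymphocyte markers were 190 to 247 and 215 to 287. In the adrenal list 1 gene was tested, with 79 to 139 and 95.5 to 121. In the adipose list 1 gene was tested, with 293 to 699 and 193 to 369.

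**Figure D5:**
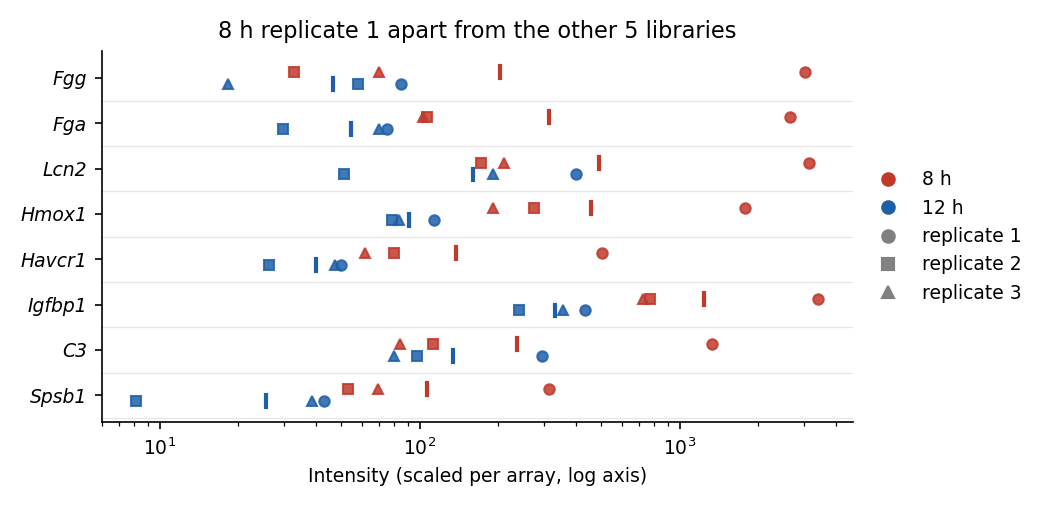
Intensity on a log axis of 8 genes in which 8 h replicate 1 (red circle) stood apart, with 8 h in red, 12 h in blue, the replicate number as the symbol and bars at means taken on the log2 scale. In Fgg that library is at 3040 and the other 5 lie between 18.4 and 85.1, so the red bar lies away from every point.

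In acute-phase and injury genes 8 h replicate 1 stood far above the other libraries, and none of these genes was called. Fga and Fgg encode fibrinogen chains. Fga had 2650, 107 and 103 at 8 h and 75, 29.8 and 69.6 at 12 h, with a difference of -2.38 ± 1.46 (adjusted p = 0.75) that became -0.86 without 8 h replicate 1. Fgg had 3040, 33 and 69.6 against 85.1, 57.8 and 18.4, with a difference of -1.97 ± 1.5 (adjusted p = 0.832) that became -0.05. Lcn2, the injury and acute-phase protein lipocalin NGAL, had 3160, 172 and 212 against 400, 51.3 and 191, and its difference went from -1.57 to -0.24. In 7 h replicate 3 these genes were high too, with 4000 for Fga, 4630 for Fgg and 3120 for Lcn2, against 55.6 and 65.6, 17.7 and 6.21, and 268 and 255 in the other 7 h libraries. In all 3 genes the other 8 h libraries lay within or close to the range of the 12 h libraries.

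Hmox1, heme oxygenase, had 1780, 275 and 191 at 8 h and 114, 78.2 and 83.3 at 12 h. Its groups did not overlap even so, and its difference of -2.24 ± 0.78 (adjusted p = 0.3) was -1.27 without 8 h replicate 1 (adjusted p = 0.827). Havcr1, the injury molecule KIM of the proximal tubule, had 502, 79.7 and 61.7 against 49.8, 26.3 and 47.5, with a difference of -1.62 that became -0.71. Complement C3 turned from -0.80 to 0.43. Against this, Edem1 fell by 1.91 with and without that library. Sds fell by 2.83 without it (adjusted p = 0.004) and Por fell by 1.73 (adjusted p = 0.000557). Of the 29 probe sets called without 8 h replicate 1, 27 were among the 49. Sgk1 kept its difference of -0.97 without that library and lost its call (adjusted p = 0.139).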

How the data were processed

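Rat kidney RNA of 17 times was measured on 53 Affymetrix arrays of the main type. The authors deposited an intensity per probe set on a linear scale, and scaled each array: its deposited intensities had a mean of 150.03 to 150.04 after the lowest and highest 2% were left out. The labels do not name the algorithm that made them. Array medians ranged from 65.6 to 83.3. The number of arrays limits the precision. The second array type holds neither 8 h nor 12 h and was not used.

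Values were log2(intensity + 7.55), the constant being the 10th percentile. Both arrays of 5 h replicate 1 were averaged, which left 52 libraries. Control probe sets (57) were removed, and 9520 probe sets with a mean log2 level at or above the 40th percentile (5.9, an intensity of 52.3) were tested. limma 3.58.1 in R 4.3.3 fitted 1 mean per time to all libraries (35 residual degrees of freedom), with a mean-variance trend and Benjamini-Hochberg adjustment, and was tested on simulated data. Probe sets were named with the platform's symbols, brought up to date by gene identifier: 12783 probe sets had 1 symbol (12748 matched by identifier, 2 by accession and 33 kept as given), 312 several and 2771 none. Those with several were left unnamed.

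Genes named were the 15 largest rises and falls with 1 symbol, an adjusted p under 0.05 and no overlap, members of 38 lists, and acute-phase genes in which 8 h replicate 1 stood apart. Members and lists were chosen with earlier results of these data known. A gene of a list was read on its probe set of highest mean. Alternatives were other constants, filters, scaling, moderation, array weights, a replicate block, the 8 h and 12 h libraries alone, arrays lettered b or c left out, and each 8 h and 12 h library left out. The comparison of 12 h with 0 h and the fit without 7 h replicate 3 were added after seeing the data. Same-numbered libraries of 8 h and 12 h had deviations correlating at 0.41, -0.013 and 0.261, and differently numbered ones at -0.415 to 0.151. The labels do not say that the numbers pair libraries, so the main fit held no block. Whether same-numbered libraries share a batch was not tested.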

Additional observations from a re-analysis of the deposited data

Results flagged for a closer look

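Groups of 4 were tested for a sample far from the others in 38 cases, the 0 h values of the genes and probe sets that fell or rose, and 3 were marked. About 1 in 20 such groups is marked by chance. Edem1 at 0 h had 298 in replicate 2 and 269, 271 and 272 in the others. Tacc1 had 110 in 0 h replicate 1, under 151, 154 and 157. Cgnl1 had 917 in 0 h replicate 1, under 1080, 1100 and 1110.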

How the results depend on the processing

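All 779 differences of the 49 called probe sets over 16 alternatives kept their sign, and 13 probe sets kept their call throughout. With the 8 h and 12 h libraries alone 3 rose and 16 fell, and with array weights 108 rose and 116 fell (8 h against 7 h: 3 higher and 2 lower; 12 h against 0 h: 16 higher and 15 lower; 10 glucocorticoid-induced genes lower). The estimate of those weights stopped short of its convergence tolerance. With all arrays lettered b or c left out 2 rose and 19 fell, 1 was lower at 8 h than at 7 h and 4 were lower at 12 h than at 0 h, and 4 were also lower there with no filter. With 1 library of 8 h or 12 h left out, rises ranged from 5 to 22, falls from 19 to 29, probe sets lower at 8 h than at 7 h from 0 to 2, and those higher and lower at 12 h than at 0 h from 1 to 13 and from 0 to 8. Without 7 h replicate 3, an alternative chosen after seeing the data and not among the 16, 29 rose and 41 fell, with all 49 calls among the 70. The cause of these shifts was not tested. The same 6 fits gave 5 to 7 glucocorticoid-induced genes lower, with a median between -1.07 and -0.48. The replicate block gave 22 rises and 32 falls and lost 1 call, that of Fgf13, and libraries of the same number did not all correlate. Of 575 list medians over the alternatives 19 moved by more than the spread. Log2 differences of dim probe sets near the constant, such as Slc25a34, are understated. Lost calls did not follow brightness alone. Slc25a34 lost its call in 8 of 15 alternatives, the brighter Insig1 in 8 of 16 and the dim 1374543_at in 2 of 15.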
